A study of Homo sapiens with 6 samples.

Results

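The genes described here are fibroblast growth factor (FGF) ligands, their receptors and sprouty feedback genes: FGF1, FGF2, FGF5, FGF7, FGF18, FGFR1, FGFR2, FGFR3, SPRY2 and SPRY4. They were chosen by gene name, and all 10 were found among the 35639 genes of the expression table. The cells were hFOB 1.19, an osteoblastic line of human fetal origin. A form of SV40 large T antigen that is sensitive to temperature had been used to immortalise it. The cells were grown at 34 °C, at which they divide. They had been transduced with a lentiviral vector carrying the dTomato reporter and either no histone gene (EV), HA-tagged wild-type histone H3.3 (WT) or the same tagged histone with the G34W substitution found in giant cell tumour of bone (G34W). The transgene is a Drosophila H3.3 coding sequence, it was expressed beside the endogenous histone genes, and the cells were sorted for dTomato. RNA was collected 15 days after transduction, with 2 libraries of poly(A) RNA per group. Nothing in the labels says that the libraries of a group came from separate transductions, so the p-values measure only the spread between these libraries, which may be technical.

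FGFs are secreted signals that bind receptor tyrosine kinases, FGFR1 to FGFR4, together with heparan sulfate. Activated receptors recruit the adaptor FRS2 and switch on the RAS-ERK cascade, which in turn induces transcription of feedback genes, among them the sprouty genes. Sprouty proteins dampen the same cascade. In bone, FGF signalling acts on the proliferation and differentiation of osteoblast precursors, and activating mutations of its receptors cause skeletal disorders.

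Values are estimated read counts per gene, normalised by the authors between libraries and not divided by gene length. Depth per library was not worked out from them, so precision is judged from the spread between libraries. The values summed to between 38821143 and 48024590 in the 5 libraries compared: EV replicate 2, and replicates 1 and 2 of WT and of G34W. EV replicate 1 was left out of the comparisons, because it was listed at 0 for 28688 genes (80.5%), summed to 157595150 and was above 0 for 2 of the 10 genes described. EV was therefore a single library in the comparisons given here, and an alternative fit with all 6 libraries is given only among the processing alternatives. Groups followed the library titles. In the genotype field of the labels, G34W and WT are swapped relative to the titles, so every direction between these groups would turn over, and the comparisons with EV would exchange names, if that field were right.

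G34W replicate 1 stood apart from the other 4 libraries. All 11 of 11 pluripotent stem cell markers were highest in it, and all 11 were more than 2-fold above each of the other libraries. Their summed value was 66354 in that library, against 1142 in EV replicate 2, 981 and 1058 in WT replicates 1 and 2, and 955 in G34W replicate 2. The most abundant of them was POU5F1, the pluripotency factor OCT4, at 19441 in G34W replicate 1 and between 41.6 and 75.4 in the others. None of the 11 was listed at 0 in any of the 5 libraries. Epithelial markers also differed in that library: their sum was 4279, led by EPCAM at 2175, against 49.8 to 109 in the other 4, and KRT5 was listed at 0 in all but WT replicate 1. Endothelial markers summed to 776 in it, of which the receptor KDR made up 656, against 93.8 to 261 in the others. The part of these markers in the FGF results was not tested, and fold changes of G34W are given below with and without this library. The fits without it hold 1 G34W and 1 EV library, both assumed to vary like the WT libraries. In bulk RNA, more or fewer cells of a type and more or less RNA per cell cannot be told apart.

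The osteoblast label was checked against 9 markers. COL1A2, which encodes a chain of type I collagen, was the most abundant of them in all 5 libraries, at 90034 to 138799, and their sum was 191688 to 261508. RUNX2, the transcription factor of early osteoblast commitment, was 236 in G34W replicate 1 and 387 to 573 in the other 4 libraries. COL1A1, which encodes the other chain of type I collagen, was 24757 to 43115, and SPARC, osteonectin, was 72998 to 85409. ALPL, alkaline phosphatase, was 1216 in G34W replicate 1 and 107 to 428 in the other 4 libraries, and SPP1, osteopontin, was 171 to 649. SP7 was at most 6.03, BGLAP, which encodes osteocalcin, was 4.08 to 44.9, and IBSP was listed at 0 in 4 libraries and was 2.5 in EV replicate 2. Neural progenitor markers summed to 9802 to 21219, led by NES, the intermediate filament nestin, in 4 libraries and by the tubulin gene TUBB3 in G34W replicate 1; SOX1 was listed at 0 in EV replicate 2 and in both WT libraries. Myeloid markers summed to 1034 to 1417, led in each library by the lysosomal gene CD68, with AIF1 at 1.83 or less.

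**Figure D1:**
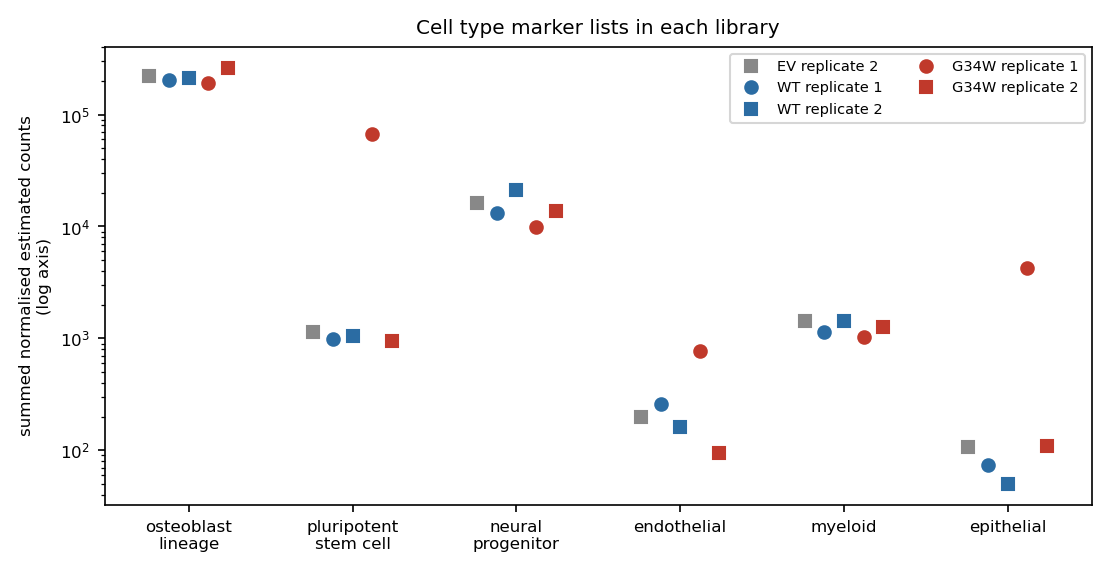
Summed normalised estimated counts of 6 cell type marker lists (horizontal axis) in each of the 5 libraries, on a log axis; grey is EV, blue WT and red G34W, with circles for replicate 1 and squares for replicate 2. G34W replicate 1 lies apart for pluripotent stem cell markers (66354 against 955 to 1142) and epithelial markers (4279 against 49.8 to 109).

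The 10 genes differed widely in level. Here levels of different genes were compared per kilobase of each gene's longest protein-coding transcript. On that scale FGF2 was highest, at 1736 ± 510 (SD, n = 5 libraries), followed by FGFR1 at 1427 ± 218, and their ranges over the libraries overlapped. SPRY2 came next at 733 ± 119 per kilobase and did not overlap with its neighbours in the order. FGF1 at 276 ± 42.0 and SPRY4 at 248 ± 90.6 per kilobase overlapped, and FGF5 followed at 110 ± 44.8. FGF5 did not overlap with SPRY4 above it, and its range met that of FGFR3, at 36.5 ± 11.4 per kilobase, through G34W replicate 1. FGFR2, FGF18 and FGF7 were lowest, at 7.19 ± 14.2, 5.49 ± 2.38 and 4.45 ± 4.21 per kilobase, with ranges that overlapped each other, and the FGFR2 range also overlapped that of FGFR3. The place of FGFR2 rested on G34W replicate 1: without that library its mean was 0.851 per kilobase, the lowest of the 10. With the median transcript length of each gene in place of the longest, a choice added after the data were seen, FGFR1 (2288 per kilobase) stood above FGF2 (1774), and FGF7 stood above FGF18.

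The first question was whether expression of the FGF genes differed between cells with the mutant and with the wild-type histone. Each gene was tested with limma on log2(value + 1) among the 16259 genes with a mean of at least 10 over the 5 libraries; a fold change on this scale understates the change of low genes. All 10 genes passed this filter, FGFR2 through G34W replicate 1 alone. None of the 10, and 0 of the 16259 genes (0%), passed a limma adjusted p of 0.05. At an unadjusted p under 0.05, 439 genes (2.7%) were found, of which 174 (1.07% of those tested) were lower in G34W; among the 10 genes this held for FGF5. Without G34W replicate 1 the counts were 0 and 226. The unadjusted count was 1510 without G34W replicate 2, 556 without WT replicate 1, 287 without WT replicate 2 and 715 in the fit blocked on replicate number. Leaving out G34W replicate 2 gave 13 genes past the adjusted threshold, leaving out WT replicate 1 gave 6 and leaving out WT replicate 2 gave 1, all higher in G34W and none of them among the 10. In an exact permutation test of 2 libraries against 2, no p below 0.333 can be reached.

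All 5 ligands had lower means in G34W than in WT, and in 4 of them (FGF1, FGF2, FGF5 and FGF7) both G34W libraries lay below both WT libraries. Among all genes tested, 14.7% had both G34W libraries below both WT libraries and 11.6% had both above. In the same 4 ligands both G34W libraries also lay below EV replicate 2, a pattern seen in 9.55% of the genes tested. The median log2 fold change of the 5 ligands was -0.55, and it was -0.86 without G34W replicate 1. Over all genes tested these medians were -0.06 and 0.04. The ligands were chosen with earlier results of these data known, and these counts are descriptions.

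FGF5 (ENSG00000138675, chr4:80266588-80291017, GRCh38.p14), a ligand known as a regulator of the hair growth cycle, had the smallest unadjusted p of the 10 genes. Its value was 561 in EV replicate 2, 784 and 851 in WT replicates 1 and 2, and 278 and 438 in G34W replicates 1 and 2. Both G34W libraries were the lowest of the 5 and both WT libraries the highest. The G34W mean was 358 ± 113 (SD, n = 2) and the WT mean 818 ± 46.8 (SD, n = 2), a log2 fold change of -1.22 (SE 0.34, 95% interval -2.00 to -0.45). The limma p was 0.00583 before adjustment, and the limma adjusted p was 0.9998. Without G34W replicate 1 it was -0.90 (95% interval -1.78 to -0.02), where the spread comes from the WT libraries and the variance prior, and this interval is no independent check. Over all alternatives run, its limma adjusted p lay between 0.269 and 1. FGF5 overlaps CFAP299 on the same strand, whose value was 11.04 to 35.8.

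FGF7 (ENSG00000140285, chr15:49423242-49488775), also called keratinocyte growth factor, is typically made by mesenchymal cells and acts on epithelial cells through an isoform of FGFR2. It was low in all libraries: 17.6 in EV replicate 2, 24.2 and 61.6 in WT, and 5.83 and 9.09 in G34W. Its log2 fold change was -2.26 (SE 1.02, 95% interval -4.57 to 0.05), and -1.98 without G34W replicate 1. It was -1.60 without WT replicate 2 and -2.91 without WT replicate 1. Its value is uncertain, because near-identical pseudogene copies also had values: FGF7P3 was 168 to 295 and FGF7P6 83.3 to 174. It also overlaps FAM227B on the opposite strand (38.01 to 82.5), and the strand setting of the authors' counting is not given in the sources used here.

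FGF2 (ENSG00000138685, chr4:122826682-122898236), basic FGF, a broad mitogen for mesenchymal cells, made up 78.2% to 83.4% of the summed per-kilobase levels of the 5 ligands in the 5 libraries, and 72.6% to 78.2% with median transcript lengths. It was 12791 in EV replicate 2, 10497 and 17268 in WT, and 8170 and 10292 in G34W. The higher G34W library lay only just below the lower WT library, so the separation was smaller than the spread within either group. The log2 fold change was -0.55 (SE 0.30, 95% interval -1.23 to 0.12), and -0.39 without G34W replicate 1. It was -0.20 without WT replicate 2 and -0.91 without WT replicate 1. Its antisense neighbour NUDT6 was 504 to 886, and reads of the pair may not have been separated by strand.

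FGF1 (ENSG00000113578, chr5:142592178-142698070), acidic FGF, which can bind all FGF receptors, was 1234 in EV replicate 2, 1096 and 1344 in WT, and 1012 and 917 in G34W. The groups did not overlap, but the gap between them was smaller than the spread of WT. The log2 fold change was -0.33 (SE 0.27, 95% interval -0.95 to 0.29), -0.40 without G34W replicate 1 and -0.19 without WT replicate 2. FGF18 (ENSG00000156427, chr5:171419647-171457626), a ligand of skeletal development, was 14.995 in EV replicate 2, 16.7 and 7.29 in WT, and 10.2 and 5.69 in G34W. The groups of FGF18 overlapped, and its log2 fold change of -0.48 (SE 1.23) had an interval from -3.27 to 2.31. It was -0.86 without G34W replicate 1 and -0.11 without G34W replicate 2. Without WT replicate 2 it was -1.03, and it turned to 0.065 without WT replicate 1.

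**Figure D2:**
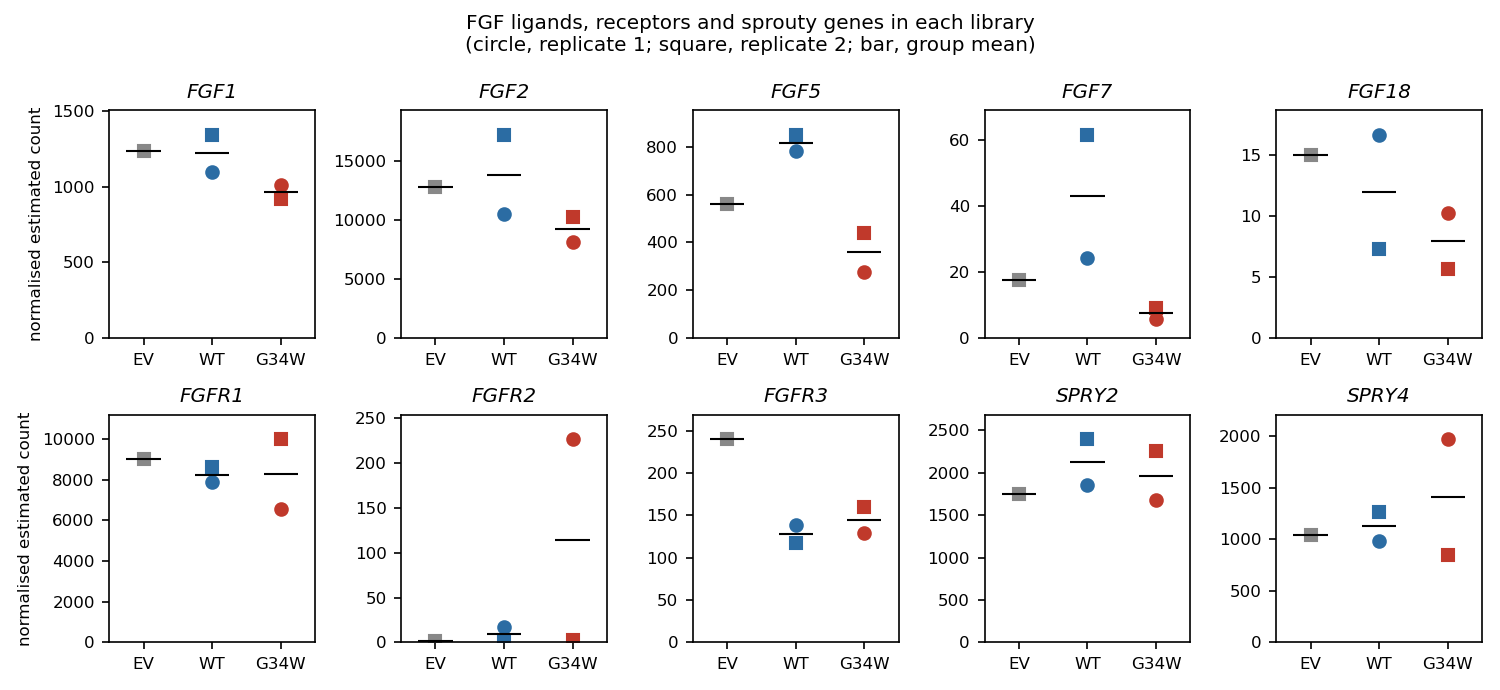
Normalised estimated counts (vertical axes, from 0) of the 10 genes in EV, WT and G34W libraries; circles are replicate 1, squares replicate 2 and bars group means, with EV a single library. FGF5 was 784 and 851 in WT against 278 and 438 in G34W, and FGFR2 was 227 in G34W replicate 1 and at most 17.1 elsewhere.

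Promoter sequence is shown for the ligands with the largest differences, FGF5 and FGF7, beside that of the feedback gene SPRY2, whose libraries overlapped between the groups. Each run is the 250 bases before the gene's start in RefSeq (GRCh38.p14), written 5′ to 3′ on the gene's strand; 9 of the 10 genes had an entry in the promoter table. Capitals mark matches on either strand to TGANTCA, the letters of the AP-1 motif, or CCGGAA, a core of ETS motifs, families of factors that ERK signalling acts on. FGF5 lies at chr4:80266338-80266587 on the plus strand, FGF7 at chr15:49422992-49423241 on the plus strand and SPRY2 at chr13:80341127-80341376 on the minus strand.
FGF5: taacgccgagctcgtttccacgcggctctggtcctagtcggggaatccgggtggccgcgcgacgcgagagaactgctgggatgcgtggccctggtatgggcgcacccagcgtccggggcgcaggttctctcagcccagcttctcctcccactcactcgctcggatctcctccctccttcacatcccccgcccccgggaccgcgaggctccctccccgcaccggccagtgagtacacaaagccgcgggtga
FGF7: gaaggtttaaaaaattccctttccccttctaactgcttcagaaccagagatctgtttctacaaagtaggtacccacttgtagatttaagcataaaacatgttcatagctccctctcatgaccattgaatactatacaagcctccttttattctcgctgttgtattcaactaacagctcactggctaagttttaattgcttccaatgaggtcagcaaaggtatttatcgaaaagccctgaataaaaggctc
SPRY2: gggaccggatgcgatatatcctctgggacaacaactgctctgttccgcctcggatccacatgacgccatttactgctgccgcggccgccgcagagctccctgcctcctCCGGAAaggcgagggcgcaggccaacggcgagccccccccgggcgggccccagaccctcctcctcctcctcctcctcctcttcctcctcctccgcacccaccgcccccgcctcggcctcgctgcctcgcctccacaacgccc

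The SPRY2 run held 1 match to CCGGAA, which begins 142 bases before the start, and the FGF5 and FGF7 runs held neither motif. Among all 35116 promoter windows of 250 bases, 14.5% held CCGGAA and 6.57% held TGANTCA. Of the 19 windows of the 9 genes, 1 held each motif, with TGANTCA in a window of an alternative FGF1 start. A match is a description of letters, and nothing about a factor follows from its absence. The 3 runs differed in base composition: G and C made up 68.8% of the FGF5 run, 38.4% of the FGF7 run and 70.4% of the SPRY2 run, against a median of 58.0% over all windows.

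The receptors showed no shared direction. FGFR1 (ENSG00000077782, chr8:38411143-38468635), the main FGF receptor of mesenchymal cells, was 9043 in EV replicate 2, 7882 and 8602 in WT, and 6574 and 10000 in G34W. The G34W libraries lay on either side of all the others, and the log2 fold change was -0.02 (SE 0.27, 95% interval -0.64 to 0.60). It was 0.28 without G34W replicate 1, and 0.03 with each library rescaled to a median ratio of 1. LETM2, which overlaps it on the opposite strand, was 124 to 227. Per kilobase, FGFR1 made up 75.1% to 83.5% of the summed FGFR1 to FGFR4 signal, and FGFR4, which is not one of the 10 genes, made up 14.7% to 20.6%. With median transcript lengths, also chosen after the data were seen, these shares were 59.3% to 70.3% and 28.6% to 37.5%.

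FGFR2 (ENSG00000066468, chr10:121478330-121598458), a receptor that epithelial and osteogenic cells use in different splice forms, was 1.48 in EV replicate 2, 17.1 and 2.76 in WT, and 227 and 2.35 in G34W replicates 1 and 2. The high value of G34W replicate 1 was 13.3 times the highest other library. Its log2 fold change of 1.74 (SE 1.96, 95% interval -2.69 to 6.18) turned to -1.30 without that library. FGFR2 was the only one of the 10 genes for which G34W replicate 1 was more than 2-fold above each of the other 4 libraries, as it was for 6.05% of the genes tested.

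FGFR3 (ENSG00000068078, chr4:1793293-1808867), known as a brake on growth plate chondrocytes, was 240 in EV replicate 2, 138 and 118 in WT, and 130 and 160 in G34W. The single EV library lay above the other 4, which overlapped between the groups. Its log2 fold change between G34W and WT was 0.18 (SE 0.44), with a 95% interval from -0.81 to 1.17, and ranged from 0.024 without G34W replicate 2 to 0.33 without G34W replicate 1.

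The feedback genes overlapped between the groups. SPRY2 (ENSG00000136158, chr13:80335976-80341126) was 1749 in EV replicate 2, 1853 and 2398 in WT, and 1673 and 2254 in G34W. Its log2 fold change was -0.12 (SE 0.28, 95% interval -0.75 to 0.51), and 0.10 without G34W replicate 1. SPRY4 (ENSG00000187678, chr5:142310430-142325021) was 1040 in EV replicate 2, 986 and 1270 in WT, and 1974 and 844 in G34W replicates 1 and 2. Those G34W values were the highest and the lowest of the 5 libraries. The SPRY4 log2 fold change of 0.21 (SE 0.40, 95% interval -0.70 to 1.11) turned to -0.41 without G34W replicate 1.

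**Figure D3:**
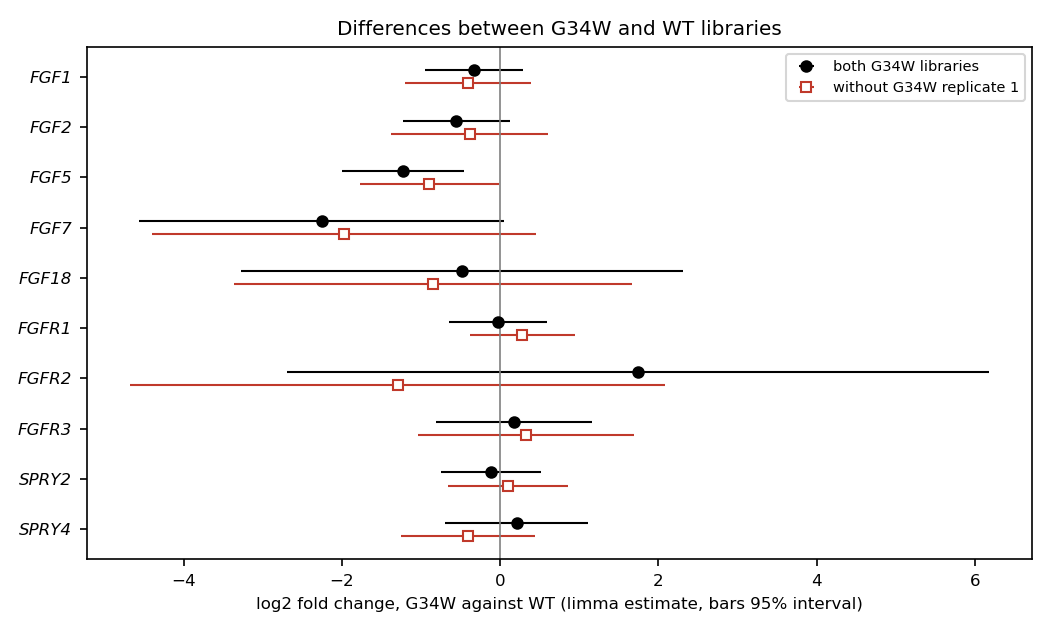
Log2 fold change of G34W against WT for the 10 genes (horizontal axis), with both G34W libraries (black circles) and without G34W replicate 1 (open red squares); bars are limma 95% intervals of single genes, not adjusted for the number of genes. The FGF5 interval lies below 0 both ways (-2.00 to -0.45, and -1.78 to -0.02, the second with 1 G34W library and its spread taken from WT), while FGFR1, FGFR2, SPRY2 and SPRY4 change sign.

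Over the 10 genes the median log2 fold change was -0.23, against -0.06 over all genes tested. Without G34W replicate 1 it was -0.41, and without WT replicate 2 it was -0.07. Of the 10 genes 3 had a positive and 7 a negative fold change, and 56.9% of all genes tested had a negative one. FGFR2 passed the filter only through G34W replicate 1, where it is high. The other 9 genes had 2 positive and 7 negative fold changes, with a median of -0.33.

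The comparisons with EV asked whether the transgene itself, mutant or wild type, went with a difference from the empty vector. They share the single EV library, which was assumed to vary like the other groups. In G34W against EV, 0 of 16259 genes (0%) passed a limma adjusted p of 0.05 and 317 (1.95%) had an unadjusted p under 0.05; in WT against EV these were 0 (0%) and 157 (0.966%). With a pseudocount of 0.1 each comparison had 1 gene past the adjusted threshold, and without WT replicate 1 the comparison of WT with EV had 3. Both unadjusted counts depended on the libraries used. That of G34W against EV was much higher without G34W replicate 2 and lower without G34W replicate 1. That of WT against EV was higher without WT replicate 1 and with the replicate block, and lower without WT replicate 2. None of the 10 genes had an unadjusted p under 0.05 in either comparison. FGF5 was on opposite sides of EV, with a log2 fold change of -0.68 (SE 0.42, 95% interval -1.63 to 0.26) in G34W and 0.54 (SE 0.42, 95% interval -0.40 to 1.49) in WT. FGF7 was at -1.16 (SE 1.25) and 1.09 (SE 1.25), with both intervals spanning 0. FGF2 was at -0.48 (SE 0.37) in G34W and 0.07 (SE 0.37) in WT, and FGF1 at -0.36 (SE 0.34) and -0.02 (SE 0.34). FGFR3 was lower than EV in both, at -0.73 (SE 0.54) and -0.91 (SE 0.54), and each of these differences rests on the single EV library. Without G34W replicate 1, the G34W differences from EV were -0.35 for FGF5, -0.88 for FGF7, -0.31 for FGF2, -0.43 for FGF1 and -0.58 for FGFR3. FGFR1 moved from -0.16 to 0.15 and SPRY4 from 0.31 to -0.30, so the direction of both turned on that library. On the WT side, without WT replicate 2 and without WT replicate 1 in turn, FGF7 was at 0.44 and 1.75, FGF2 at -0.29 and 0.43, and FGF1 at -0.17 and 0.12. In G34W, FGFR2 moved from 3.48 to 0.43 without G34W replicate 1, SPRY2 from 0.15 to 0.37 and FGF18 from -0.88 to -1.26. Without G34W replicate 2, SPRY2 turned to -0.064, FGFR2 was at 6.52 and FGF18 at -0.51.

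Other genes of the pathway were taken from 6 lists with 65 names, of which 64 were in the table and 50 were tested. None of the 50 passed a limma adjusted p of 0.05 in any comparison, and 3 of the 50 had an unadjusted p under 0.05 in G34W against WT, against 2.7% of all genes tested. Of the 50, 26 had a positive and 24 a negative fold change, with a median log2 fold change of 0.01, which was -0.01 without G34W replicate 1 and -0.16 without G34W replicate 2, where the median of all genes tested was -0.17. Both G34W libraries lay below both WT libraries in 8 of the 50 and above in 4, near the shares of 14.7% and 11.6% over all genes tested. For 6 of the 50, G34W replicate 1 was more than 2-fold above each of the other libraries, against 6.05% of all genes tested. FGF19 and FGFBP1 are 2 of these 6 and passed the filter only through that library, where they are high. The other 48 genes had 24 positive and 24 negative fold changes, with a median of -0.013.

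A list of 17 other FGF genes was not one of ligands alone, since it also held intracellular homologous factors such as FGF12 and FGF13. Of the 17 genes, 6 were tested, 5 with a positive and 1 with a negative fold change. Their median log2 fold change was 1.07, against -0.08 without G34W replicate 1 and 1.58 without G34W replicate 2. FGF19 passed the filter on low values only through G34W replicate 1, where it is high, so these counts and medians support nothing. The other 5 genes had 4 positive and 1 negative fold change, with a median of 0.68. Their signs also depended on that library. Without it, FGF11 was at -0.16, FGF12 at 1.02, FGF13 at -0.79, FGF14 at -2.59 and FGF22 at 1.17. FGF12, an intracellular FGF homologous factor that is not secreted, was 76.0 in EV replicate 2, 39.9 and 62.2 in WT, and 191 and 102 in G34W. Both G34W libraries were the highest of the 5, as in 7.87% of the genes tested, with a log2 fold change of 1.47 (SE 0.59), and 1.02 without G34W replicate 1. FGF13, of the same subfamily, was 3004 in G34W replicate 1 and 55.4 to 111 in the other 4, and its log2 fold change of 2.08 turned to -0.79 without that library. FGF19, an endocrine ligand named here after its values were seen, was 142 in G34W replicate 1 and listed at 0 in the other 4. Of the 3 FGF binding proteins, FGFBP2 was listed at 0 in all 5 libraries and the others were highest in G34W replicate 1: FGFBP3 was 852 in it and 18.9 to 39.3 elsewhere, and FGFBP1 was 36.3 in it and 4.44 to 15.3 elsewhere. Their log2 fold changes of 2.38 (SE 1.36) and 0.96 (SE 1.27) turned to -0.15 and -0.072 without it. FGFBP1 passed the filter on low values only through that library.

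A list of 9 sprouty, spred and membrane regulators joined genes of unlike function, since sprouty, spred and IL17RD proteins are antagonists and FLRT proteins are known to promote FGF signalling. Of the 8 genes of the list that were tested, 6 had a positive and 2 a negative fold change, with a median of 0.10. Setting the antagonists apart from the FLRT genes was not planned. Of the 6 antagonists tested, 5 had a positive and 1 a negative fold change, where 56.9% of all genes tested had a negative one. Their median was 0.65, and 0.42 without G34W replicate 1. They fell apart: SPRED1, SPRED2 and SPRED3 were at -0.13, 0.13 and 0.04, and SPRY1, SPRY3 and IL17RD at 1.28, 1.40 and 1.17. Without G34W replicate 1, SPRY3 was at 0.65 and IL17RD at -0.14. For 2 of the 6, that library was more than 2-fold above each of the others. Of the 2 FLRT genes tested, 1 had each sign. SPRY1, the sprouty paralogue beside SPRY2 and SPRY4, was 143 in EV replicate 2, 96.8 and 76.9 in WT, and 273 and 162 in G34W. Both G34W libraries were above the other 3, as in 7.87% of the genes tested. The log2 fold change was 1.28 (SE 0.48), and 0.90 without G34W replicate 1. FLRT3, a membrane protein that binds FGF receptors and promotes their signalling, was 22.3 in EV replicate 2, 68.2 and 63.5 in WT, and 17.9 and 14.8 in G34W. Its log2 fold change was -1.95 (SE 0.77), and -2.08 without G34W replicate 1. WT stood above both other groups, and both G34W libraries were below the other 3, as in 9.55% of the genes tested. IL17RD, an antagonist of FGF signalling named here after its values were seen, was 645 in G34W replicate 1 and 82.8 to 173 elsewhere, and its log2 fold change of 1.17 (SE 0.77) turned to -0.14 without that library.

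Of the 4 other receptors and co-receptors, 3 were tested. FGFR4 was 1044 in EV replicate 2, 731 and 803 in WT, and 946 and 1093 in G34W. Both G34W libraries were above both WT libraries, as in 11.6% of the genes tested, and lay on either side of EV. The log2 fold change was 0.41 (SE 0.28), and 0.51 without G34W replicate 1. KLB, a co-receptor for endocrine FGFs, was at most 25.6, and its log2 fold change of 0.25 (SE 1.14) was within its error. It was 1.06 without G34W replicate 1 and 0.79 without WT replicate 2. It turned to -0.55 without G34W replicate 2 and to -0.28 without WT replicate 1.

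All 19 adaptors and cascade genes were tested, 6 with a positive and 13 with a negative fold change against 56.9% negative over all genes tested, with a median of -0.14, which was -0.05 without G34W replicate 1 and -0.20 without G34W replicate 2. Both G34W libraries were below both WT libraries in 6 of them and above in 0, against 14.7% and 11.6% of all genes tested. The genes with the smallest p were SOS1, an exchange factor that activates RAS, at 0.74 (SE 0.44), and HRAS at -0.45 (SE 0.30); without G34W replicate 1 they were at 0.99 and -0.21, without WT replicate 2 at 0.25 and -0.15, and without WT replicate 1 at 1.23 and -0.76. Of the 13 ERK-induced genes 12 were tested, 5 with a positive and 7 with a negative fold change, with a median of -0.05, which was -0.03 without G34W replicate 1 and -0.36 without G34W replicate 2. DUSP6, a phosphatase that inactivates ERK, was 2874 in EV replicate 2, 2742 and 2934 in WT, and 4105 and 3540 in G34W, a log2 fold change of 0.43 (SE 0.24), and 0.32 without G34W replicate 1. DUSP4, a related nuclear phosphatase, was 5487 in EV replicate 2, 4500 and 4881 in WT, and 2782 and 4281 in G34W, a log2 fold change of -0.44 (SE 0.28), which ranged from -0.75 without G34W replicate 2 to -0.13 without G34W replicate 1. DUSP6 and DUSP4 separated the groups, in opposite directions, while the groups overlapped for DUSP5 of the same list. Both G34W libraries were below both WT libraries in 1 of the 12 genes and above in 1. These shares were 14.7% and 11.6% over all genes tested.

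**Figure D4:**
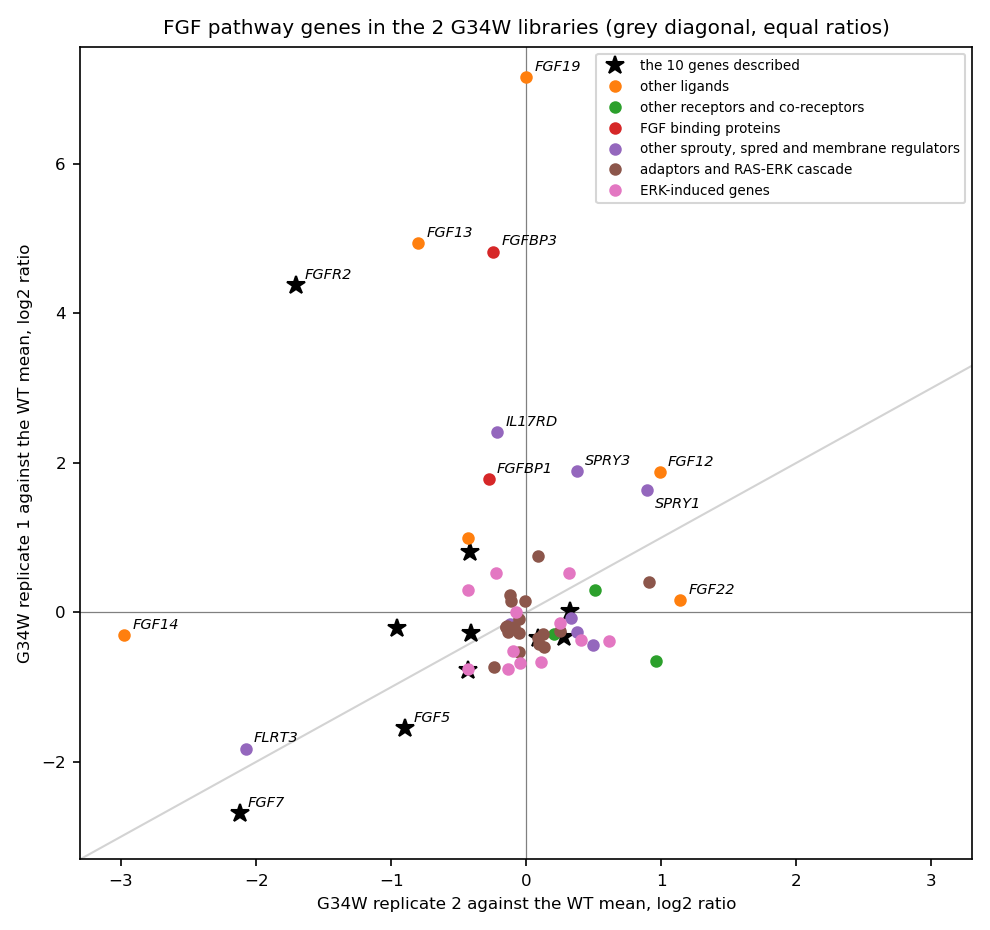
Log2 ratio to the WT mean in G34W replicate 2 (horizontal axis) and replicate 1 (vertical axis) for the tested FGF pathway genes, coloured by list, with black stars for the 10 genes described and names where either ratio is beyond 1 in size; the grey diagonal marks equal ratios. FGF7 and FGF5 lie low in both libraries (FGF5 at -0.90 and -1.55), while FGFR2, FGF13, FGF19 and FGFBP3 lie high in replicate 1 and not in replicate 2. The list labelled other ligands also holds intracellular homologous factors such as FGF12 and FGF13.

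The genes whose pattern over the 5 libraries was most like that of FGF5, by Euclidean distance of centred log2 values, were COL19A1 (distance 0.10), ASPA (0.20) and SULF1 (0.23), against a median distance of 1.34 over all genes tested. COL19A1, a collagen gene, was 55.4 in EV replicate 2, 70.9 and 80.4 in WT, and 26.2 and 40.0 in G34W. SULF1 encodes an extracellular enzyme that removes sulfate groups from heparan sulfate, and was 343 in EV replicate 2, 499.8 and 471 in WT, and 146 and 239.5 in G34W. ASPA, which encodes an enzyme that cleaves N-acetylaspartate, was 50.0, 58.3 and 70.7, and 23.0 and 37.5 in the same order. These genes were picked as the nearest of all genes tested, so distances below the median follow from that choice. With 5 libraries in 3 groups, likeness of pattern is a description.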

How the data were processed

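The authors estimated transcript abundance with kallisto on Ensembl GRCh38 models (release 99), imported it per gene with tximport and normalised it with DESeq2; the deposited signal holds these normalised estimated counts for 35639 genes in 6 libraries. Whole reads were not recovered from the values, so no count test was run. Here log2(value + 1) was fitted for 5 libraries with limma 3.58.1 (R 4.3.3), with a variance trend, on 16259 genes with a mean of at least 10, and p-values were adjusted by Benjamini-Hochberg over these genes. EV replicate 1 was left out. The fit was tested on simulated data. The genes named are the 10 genes, the 2 of each pathway list with the smallest p, and the 3 nearest to FGF5, unless stated otherwise. The members and lists were chosen with earlier results of these data known. Coordinates (GRCh38.p14) and promoters are from RefSeq, and transcript lengths and overlaps from GENCODE 44. Alternatives left out each library or changed the block, pseudocount, filter, variance trend, scaling or libraries used. Figures were drawn with matplotlib 3.10.9.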

Additional observations from a re-analysis of the deposited data

Results flagged for a closer look

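EV replicate 1, which was used only in the alternative fit with all 6 libraries, had an FGFR2 value of 641, against 1.48 in EV replicate 2, which is 433 times as high. It is given because the value, in a library left out of the report's comparisons, lay above that of the control library in use. EV replicate 1 was above 0 for 98.9% of the 619 tested genes of chromosome 10, where FGFR2 lies, and for 28.3% of the 13785 outside chromosomes 10, 11 and 12, so its values are not on the scale of the other libraries. Over the 587 tested genes of chromosome 10 with a value of at least 10 in EV replicate 2, the median ratio of EV replicate 1 to EV replicate 2 was 23.5. FGFR2 is not among them, because its 1.48 in EV replicate 2 was below 10. The ratio of 433 rests on that low value, and FGFR2 was 17.1 in WT replicate 1. Of the other 9 genes, FGF2 was 33.8 in EV replicate 1 and 8 were listed at 0.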

How the results depend on the processing

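Of the 10 genes, FGF1, FGF2, FGF5, FGF7 and FGFR3 kept their direction in G34W against WT under all 11 alternatives, of which 5 cannot move this estimate by construction and 6 can. None of the 10 passed the threshold under any. No depth was known, and with 2 libraries a group a single library can turn a direction. The cause of the changes below was not tested.

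Genes called numbered 0 to 13 in G34W against WT when each library was left out (13 without G34W replicate 2, 6 without WT replicate 1 and 1 without WT replicate 2, all higher in G34W), and 0 to 3 in WT against EV. With a pseudocount of 0.1 there was 1 in each comparison with EV. The median of the 10 genes ranged from -0.41 to -0.073.

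With the replicate block, 0 genes were called in each comparison, and FGFR1 reversed against EV in G34W (0.025) and WT (0.048), as did FGF1 (0.014), FGFR2 (-0.36) and SPRY4 (-0.11) in WT against EV. Libraries share only the number: deviations of same-numbered G34W and WT libraries correlated at 0.09 across genes.

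When each library was left out, log2 fold changes that reversed in G34W against WT ranged over -1.03 to 0.065 for FGF18, -0.32 to 0.28 for FGFR1, -1.30 to 4.79 for FGFR2, -0.33 to 0.10 for SPRY2, -0.41 to 0.82 for SPRY4, -0.79 to 4.95 for FGF13, -0.072 to 1.99 for FGFBP1, -0.15 to 4.91 for FGFBP3 and -0.55 to 1.06 for KLB. Against EV they ranged over -0.46 to 0.15 for FGFR1 in G34W, -0.064 to 0.37 for SPRY2 in G34W, -0.30 to 0.92 for SPRY4 in G34W, -0.17 to 0.12 for FGF1 in WT, -0.29 to 0.43 for FGF2 in WT, -0.95 to 0.14 for FGF18 in WT and -0.077 to 0.29 for SPRY4 in WT. Rescaling turned FGFR1 to 0.031.

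With all 6 libraries, where EV replicate 1 was above 0 for 37.7% of the genes tested, G34W against EV reversed to 4.78 for FGF1, 3.78 for FGF2, 3.88 for FGF5, 0.94 for FGF7, 1.116 for FGF18, 6.41 for FGFR1, -0.53 for FGFR2 and 3.23 for FGFR3, and WT against EV to 5.11 for FGF1, 1.60 for FGF18, 6.44 for FGFR1, -2.28 for FGFR2 and 3.05 for FGFR3. DESeq2 was not run, since it needs counts.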
